A study of Mus musculus with 6 samples.

Results

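Respiratory complex I genes were followed across 6 arrays of mouse C2C12 myotubes, multinucleated muscle cells that form when the C2C12 myoblast line is moved to low serum. Every gene whose symbol starts with Nduf, and that has a probe set tied to 1 gene symbol, was taken. These were 43 genes of 19938 named on the array, each read from its probe set with the highest mean. The cells had received 10 nM of a scrambled siRNA or of an siRNA against Plin2, the gene of the lipid droplet coat protein perilipin 2, followed for 20 h by albumin (BSA) alone or by 200 µM oleate or palmitate carried on BSA at 2.5 fatty acid molecules per BSA. The 6 conditions were thus scrambled siRNA with BSA, scrambled siRNA with oleate, scrambled siRNA with palmitate, Plin2 siRNA with BSA, Plin2 siRNA with oleate and Plin2 siRNA with palmitate, with 1 array each. All cells had been grown in 10% serum, differentiated in 2% serum and transfected, and no untransfected cells were analysed here. The model is a single cell line and a transient knockdown, and the labels do not say whether the cultures were separate, so a p-value here reflects how these arrays differ from one another, which may be technical.

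Values are RMA log2 expression levels, on which a difference of 1 is a doubling. An siRNA change is the mean log2 difference between Plin2 siRNA and scrambled siRNA over the 3 treatments, from a limma model with treatment and siRNA as terms. A gene is said to have risen or fallen where its limma p, adjusted by Benjamini-Hochberg over 21789 probe sets, was below 0.05. The targeted gene checked the labels: Plin2 stood at 9.29, 10.03 and 10.10 with scrambled siRNA (BSA, oleate, palmitate) and at 6.95, 7.63 and 7.45 with Plin2 siRNA. All 12 skeletal muscle markers examined were present in every array, at log2 levels between 9.28 and 13.67, whereas the macrophage and endothelial markers lay between 3.30 and 5.53. The fat cell genes Adipoq, Plin1, Lep and Cidec lay between 3.41 and 5.34.

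Complex I (NADH:ubiquinone oxidoreductase) is the entry point of the mitochondrial respiratory chain for electrons from NADH. Its matrix arm carries a flavin and a chain of iron-sulfur clusters that pass the electrons to ubiquinone, and its membrane arm pumps protons into the intermembrane space. The core subunits, conserved from bacteria, do the catalysis, and the accessory subunits surround and stabilise them. The hydrophobic core subunits of the membrane arm are encoded in mitochondrial DNA and all Nduf genes in the nucleus, so the complex is built from products of both genomes with the help of assembly factors, several of which carry the symbol Ndufaf. Skeletal muscle is rich in the complex. The measured genes comprised 34 structural subunits (6 core, 9 accessory in the matrix arm, 9 in the proximal membrane arm, 9 in the distal membrane arm, and the acyl carrier protein Ndufab1, found in both arms), 7 assembly factors, and the pair Ndufa4 and Ndufa4l2. Some genes of the role lists, among them Ndufb1, Ndufb4 and Ndufaf8, had no probe set tied to their symbol alone and were not analysed here.

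Nuclear respiratory chain genes are known to carry promoter elements for NRF1, for ETS-family proteins such as GABP, for YY1 and for estrogen-related receptors. RefSeq promoters (GRCm38.p6) of 250 bases before the start were found for 38 of the 43 genes, in 40 windows. Letters of the 4 element types were searched on both strands. The NRF1-type letters (GCGCA, any base, then GCGC) stood in 7 of the 40 windows (17.5%), against 3.74% of all 32851 windows of the same length. The YY1-type letters AANATGGC stood in 6 (15.0%, against 3.91%), the ETS-type letters CCGGAAG in 4 (10.0%, against 6.91%) and the estrogen-related receptor-type letters AAGGTCA in 2 (5.0%, against 4.08%). No window held both the NRF1-type and the ETS-type letters. Among windows of the genes that rose with Plin2 siRNA, 2 of 11 held the NRF1-type letters and 2 the YY1-type; among those of genes not called, 5 of 28 and 4 did. A match here is a run of letters and says nothing of binding. The 5 promoters below are those of the genes with the largest rise in the membrane arm, among assembly factors and among core subunits, of the other assembly factor that rose, and of the only gene that fell. They are written 5′ to 3′ on the strand of the gene, and capitals mark the matched letters: NRF1-type in Ndufaf4, ETS-type in Ndufs3 and Ndufb7, YY1-type (on the opposite strand) in Ndufaf3, and none in Ndufa3.
Ndufa3 (chr7:3617123-3617372, plus strand): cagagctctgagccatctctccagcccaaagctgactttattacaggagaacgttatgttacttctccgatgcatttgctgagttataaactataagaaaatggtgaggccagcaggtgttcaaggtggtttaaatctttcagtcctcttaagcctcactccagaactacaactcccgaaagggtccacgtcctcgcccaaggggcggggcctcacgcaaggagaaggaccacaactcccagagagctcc
Ndufaf4 (chr4:24897833-24898082, plus strand): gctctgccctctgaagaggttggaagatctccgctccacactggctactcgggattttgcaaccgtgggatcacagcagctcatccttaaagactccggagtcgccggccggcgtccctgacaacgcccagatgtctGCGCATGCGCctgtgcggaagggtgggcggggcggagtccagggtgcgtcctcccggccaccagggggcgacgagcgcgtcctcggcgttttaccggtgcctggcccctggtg
Ndufs3 (chr2:90904722-90904971, minus strand): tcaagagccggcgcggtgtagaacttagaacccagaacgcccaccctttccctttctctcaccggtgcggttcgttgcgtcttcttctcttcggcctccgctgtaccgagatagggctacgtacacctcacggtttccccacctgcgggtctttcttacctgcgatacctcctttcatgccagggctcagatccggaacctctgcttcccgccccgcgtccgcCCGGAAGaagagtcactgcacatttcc
Ndufaf3 (chr9:108567437-108567686, minus strand): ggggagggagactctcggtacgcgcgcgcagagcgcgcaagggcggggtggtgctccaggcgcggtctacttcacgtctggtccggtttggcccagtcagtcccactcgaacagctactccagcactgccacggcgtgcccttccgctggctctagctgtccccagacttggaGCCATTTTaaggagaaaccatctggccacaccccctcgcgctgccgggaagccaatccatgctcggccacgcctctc
Ndufb7 (chr8:83566508-83566757, plus strand): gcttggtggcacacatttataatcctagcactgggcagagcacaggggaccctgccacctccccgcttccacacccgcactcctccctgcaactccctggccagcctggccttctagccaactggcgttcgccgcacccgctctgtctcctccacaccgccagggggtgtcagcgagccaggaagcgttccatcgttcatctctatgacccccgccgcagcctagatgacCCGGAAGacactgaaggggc

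The first comparison asks how complex I transcripts differed between Plin2 siRNA and scrambled siRNA. An effect of the siRNA itself cannot be told apart here from an effect of lower Plin2. With Plin2 siRNA, 12 of the 43 genes rose, 1 fell and 30 were not called. The 12 were Ndufa3, Ndufaf4, Ndufs3, Ndufb9, Ndufaf3, Ndufa6, Ndufc2, Ndufa8, Ndufs4, Ndufb11, Ndufs7 and Ndufa4, by log2 changes of 0.22 to 0.67, and the gene that fell was Ndufb7. The share that rose was 27.9%, where 8.5% of all 21789 probe sets rose, and the share that fell was 2.33%, where 8.58% of all probe sets fell. Counting either direction, 30.2% of the genes were called, against 17.1% of all probe sets. The median change of the 43 genes was 0.16, and 39 were above 0. Over all 19938 genes the median was 0.00439, with 51.2% above 0.

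That background includes many dim probe sets. After the dimmest 33.3% of probe sets had been removed, all 43 genes were kept, and 14 rose (32.6%) and 1 fell (2.33%), where 14.1% of the 14526 probe sets rose and 14% fell. Array by array, with no probe set removed, all 3 Plin2 siRNA arrays lay above all 3 scrambled arrays in 19 genes (44.2%, against 15.3% of all genes). They lay below all 3 in 2 genes, Ndufb7 and Ndufaf2 (4.65%, against 15% of all genes), and in 22 genes the groups overlapped. These shares of all genes again include the dim probe sets, and shares without them were not computed. Of the 13 calls, 7 held in all 13 alternative settings, whereas that of Ndufa8 held in 10, of Ndufs4 in 8, of Ndufs7 and Ndufb11 in 6, of Ndufa4 in 5 and of Ndufb7 in 4. These settings include 6 fits without 1 array, in which leaving out either array of a treatment gives the same siRNA estimate. The intervals by gene show that most changes that were not called also lay on the positive side.

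**Figure D1:**
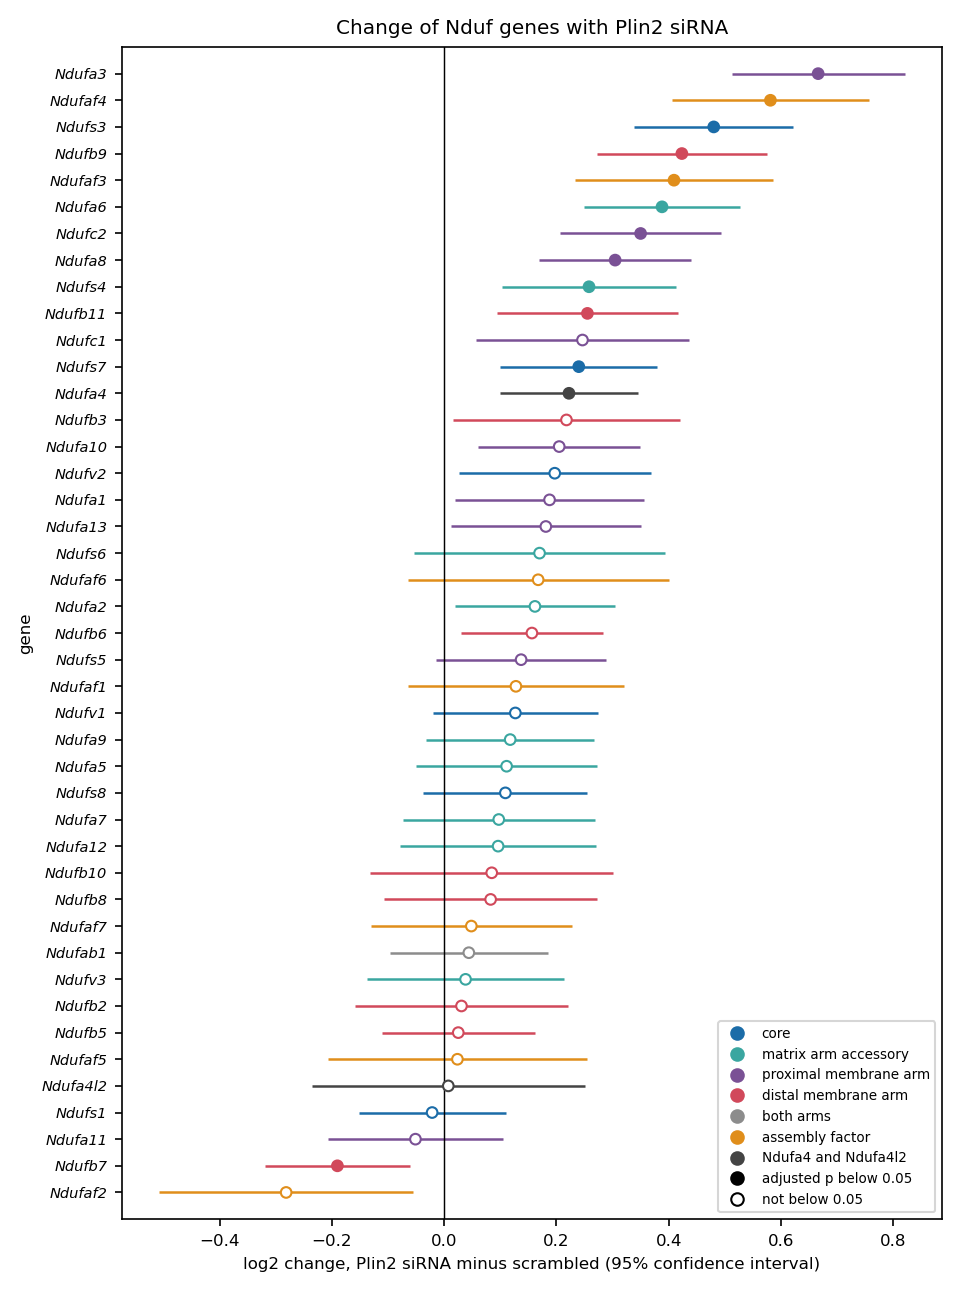
Log2 change of each of the 43 genes with Plin2 siRNA (points, mean over the 3 treatments) with 95% confidence intervals (lines), coloured by role; filled points have an adjusted p below 0.05. Ndufa3 leads at 0.67, 39 genes lie to the right of 0, and Ndufb7 is the only filled point to the left.

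The core subunits of the matrix arm divided into 2 that rose and 4 that were not called, with a median change of 0.16. Ndufs3, a subunit of the ubiquinone-binding module, was at log2 levels of 11.05, 11.04 and 10.79 with scrambled siRNA (BSA, oleate, palmitate) and at 11.39, 11.50 and 11.42 with Plin2 siRNA. The groups did not overlap, and the scrambled palmitate array was the lowest of the 6. The siRNA change was 0.48 (SE 0.06, limma adjusted p = 0.00038), a 1.39-fold rise. Ndufs7, which carries the last iron-sulfur cluster before ubiquinone, was at 10.42, 10.32 and 10.21 with scrambled siRNA and at 10.53, 10.65 and 10.49 with Plin2 siRNA. The groups were again separate, by a smaller step of 0.24 (SE 0.06, adjusted p = 0.023).

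The other core subunits moved less. Ndufv2, an iron-sulfur subunit of the NADH-binding module, was at 10.46, 10.60 and 10.21 with scrambled siRNA and at 10.62, 10.60 and 10.64 with Plin2 siRNA. The oleate arrays of the 2 siRNAs were equal to the second decimal, so its difference of 0.20 (95% interval 0.03 to 0.37, adjusted p = 0.12) came from the BSA and palmitate arrays. Ndufv1, which binds NADH and the flavin, gave 0.13 (adjusted p = 0.26), with equal levels of 10.05 in the BSA arrays. Ndufs8, another iron-sulfur subunit, gave 0.11 (adjusted p = 0.35). Ndufs1, the large iron-sulfur subunit beside Ndufv1, was at 10.99, 11.01 and 10.81 with scrambled siRNA and at 10.93, 10.93 and 10.89 with Plin2 siRNA. Its groups overlapped, and the difference of -0.02 had a 95% interval of -0.15 to 0.11 (adjusted p = 0.89), which does not reach the change of Ndufs3.

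Among the 9 accessory subunits of the matrix arm, 2 rose and 7 were not called (median 0.12, all 9 above 0). Ndufa6, an LYR-motif protein that holds the acyl carrier protein of this arm, was at 9.27, 9.37 and 9.12 with scrambled siRNA and at 9.66, 9.74 and 9.53 with Plin2 siRNA. The step was nearly the same in each treatment (0.39 with BSA, 0.36 with oleate, 0.41 with palmitate), and the fitted change was 0.39 (SE 0.06, adjusted p = 0.0014). Ndufs4, whose loss causes Leigh syndrome in people and a similar disease in mice, was at 10.63, 10.61 and 10.37 with scrambled siRNA and at 10.76, 10.81 and 10.82 with Plin2 siRNA. The palmitate pair gave its largest step, 0.45, against 0.12 with BSA, and the fitted change was 0.26 (SE 0.07, adjusted p = 0.026). Without either palmitate array it was 0.16 (adjusted p = 0.13). Ndufs6, a zinc-binding subunit, was at 8.62, 8.93 and 8.91 with scrambled siRNA and at 9.15, 8.91 and 8.90 with Plin2 siRNA. In its case the siRNAs differed with BSA only, by 0.53, and the fatty acid pairs differed by -0.02 and -0.01.

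The proximal membrane arm, which lies next to the ubiquinone site, had 3 of 9 accessory subunits that rose and the highest median of the 4 structural groups, 0.20. Ndufa3, a small single-span membrane subunit, was at 8.40, 8.31 and 8.27 with scrambled siRNA and at 9.04, 9.05 and 8.89 with Plin2 siRNA. No other Nduf gene changed as much: the groups were separated in every treatment, by 0.64, 0.74 and 0.62. The fitted change was 0.67 (SE 0.07, adjusted p = 7e-05), a 1.59-fold rise. Ndufc2 was at 10.54, 10.47 and 10.33 with scrambled siRNA and at 10.74, 10.89 and 10.76 with Plin2 siRNA, a change of 0.35 (SE 0.07, adjusted p = 0.0033). Ndufa8, a cysteine-rich subunit on the intermembrane space side, was at 9.62, 9.52 and 9.59 with scrambled siRNA and at 9.93, 9.80 and 9.92 with Plin2 siRNA. Its steps of 0.31, 0.28 and 0.32 were close to one another and gave a change of 0.30 (SE 0.06, adjusted p = 0.0053).

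In the distal membrane arm 2 of 9 subunits rose and 1 fell, with a median of 0.08. Ndufb9, an LYR-motif protein that holds the acyl carrier protein of this arm, was at 9.90, 10.08 and 9.63 with scrambled siRNA and at 10.27, 10.40 and 10.21 with Plin2 siRNA. In both siRNA groups oleate gave the highest and palmitate the lowest value, and the siRNA change was 0.42 (SE 0.07, adjusted p = 0.0014). Ndufb11, an X-linked subunit, was at 9.98, 10.10 and 9.82 with scrambled siRNA and at 10.18, 10.21 and 10.28 with Plin2 siRNA, a change of 0.26 (SE 0.07, adjusted p = 0.035). Without the scrambled palmitate array it was 0.15 (adjusted p = 0.17). Leaving out the Plin2 siRNA palmitate array instead gives the same 0.15 by construction (adjusted p = 0.18), so it is not a second check. Ndufb7, a cysteine-rich subunit of the intermembrane space side, ran the other way, at 10.66, 10.52 and 10.49 with scrambled siRNA and at 10.43, 10.39 and 10.28 with Plin2 siRNA. Every treatment pair was lower with Plin2 siRNA, and the change was -0.19 (SE 0.06, adjusted p = 0.048), a fall of about 12.4% that stood just inside the threshold. The call was lost when arrays were centred on their medians.

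The assembly factors held the largest rise after that of Ndufa3, in Ndufaf4, and also the lowest value of all 43 genes, in Ndufaf2. Of 7 factors, 2 rose, none fell and 5 were not called (28.6% rose, median 0.13). Ndufaf4, which with Ndufaf3 accompanies the ubiquinone-binding module during its assembly, was at 7.60, 7.68 and 7.85 with scrambled siRNA and at 8.32, 8.20 and 8.36 with Plin2 siRNA. It was 1 of 4 genes whose lowest array was scrambled BSA, and the change was 0.58 (SE 0.08, adjusted p = 0.00043), a 1.5-fold rise. Its partner Ndufaf3 was at 7.36, 7.40 and 7.22 with scrambled siRNA and at 7.75, 7.79 and 7.68 with Plin2 siRNA. The partners thus rose in every treatment, Ndufaf3 by 0.41 (SE 0.08, adjusted p = 0.0044).

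Ndufaf2, a factor of late assembly related in sequence to the subunit Ndufa12, was at 7.59, 7.38 and 7.33 with scrambled siRNA and at 7.03, 7.16 and 7.27 with Plin2 siRNA. The groups did not overlap, but the step shrank from -0.56 with BSA to -0.22 with oleate and -0.07 with palmitate, and the mean difference of -0.28 (SE 0.10) was not called (adjusted p = 0.092). Ndufaf6 gave 0.17 (adjusted p = 0.37). Ndufaf1, a member of the assembly complex that builds the proximal membrane arm, gave 0.13 (adjusted p = 0.42). Ndufaf7, an arginine methyltransferase, gave 0.05 (adjusted p = 0.80), and Ndufaf5, an arginine hydroxylase acting on Ndufs7, gave 0.02 (adjusted p = 0.94). Ndufaf5 and Ndufaf6 were also dim, with levels of 5.47 to 5.87 in every array.

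**Figure D2:**
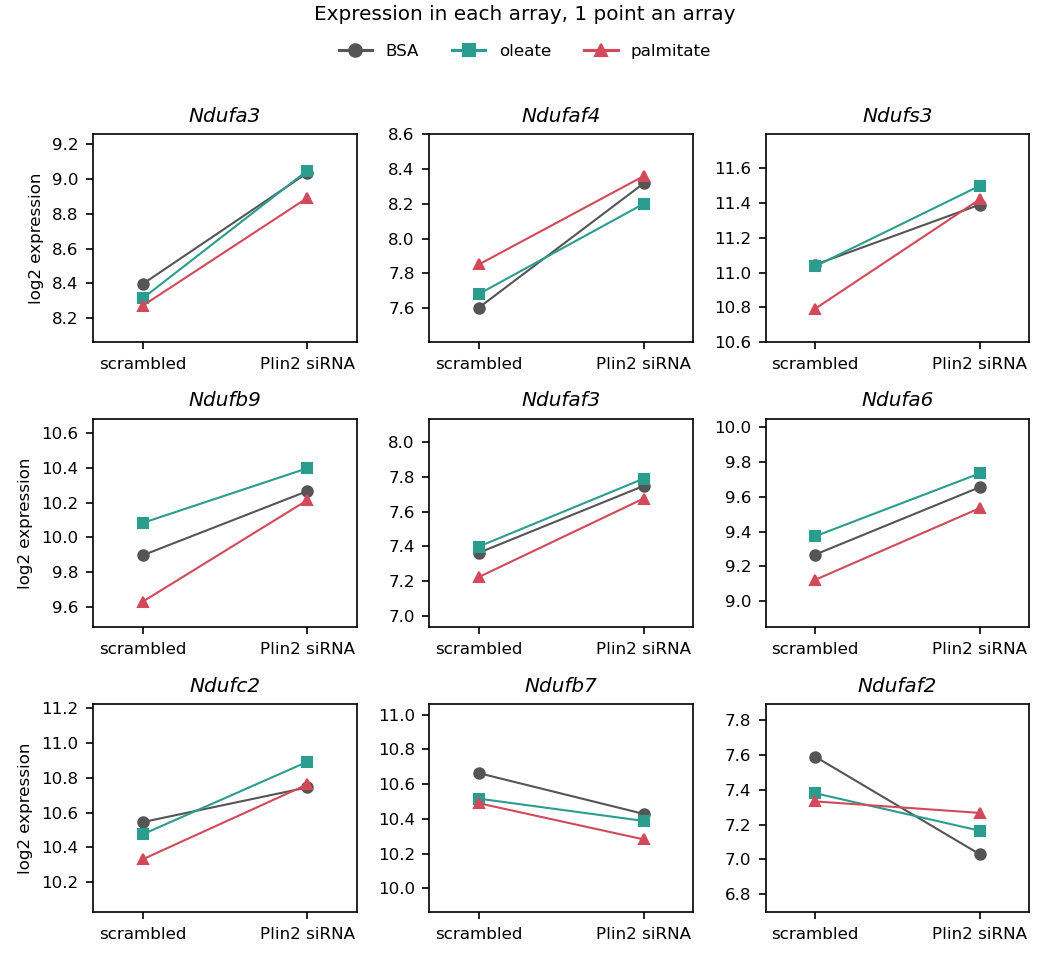
Log2 expression in each array for the 7 genes called in every alternative setting, for Ndufb7 and for Ndufaf2; each point is 1 array, each line joins the arrays of 1 treatment, and every panel spans 1.2 log2 units. The 7 rising genes climb in all 3 treatments, while Ndufb7 and Ndufaf2 descend, Ndufaf2 by -0.56 with BSA and -0.07 with palmitate.

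Ndufa4 and Ndufa4l2 were kept apart, because Ndufa4 was first isolated with complex I and is now assigned to cytochrome c oxidase (complex IV). Ndufa4 was at 11.80, 11.84 and 11.60 with scrambled siRNA and at 11.97, 12.03 and 11.92 with Plin2 siRNA. It had separate groups and a change of 0.22 (SE 0.06, adjusted p = 0.017). Its relative Ndufa4l2, known as a hypoxia-inducible gene, was dim at 5.13 to 5.40 in all arrays and gave the smallest difference of the 43 genes, 0.01 (95% interval -0.24 to 0.25, adjusted p = 0.98).

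Subunits and assembly factors were set side by side. Of the structural subunits 9 of 34 rose (26.5%) and 1 fell, and their median siRNA change was 0.16, against 0.13 for the 7 assembly factors, a difference of 0.03. Their ranges overlapped widely, from -0.19 to 0.67 for subunits and from -0.28 to 0.58 for assembly factors. The shares called in either direction were 29.4% of subunits and 28.6% of assembly factors, and no test over genes was made. For palmitate against BSA the medians were -0.11 for subunits and -0.01 for assembly factors, where 30 of 34 subunits and 4 of 7 assembly factors were below 0.

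Several genes were read by a second probe set that the annotation tied to the same symbol. For Ndufs3 the second probe set gave a change of 0.48 (adjusted p = 0.00057), next to 0.48 for the first, and for Ndufb11 it gave 0.26 (adjusted p = 0.021), next to 0.26. For Ndufc1, a proximal arm subunit, both were close to the threshold without passing it, at 0.25 (adjusted p = 0.078) and 0.19 (adjusted p = 0.074). Ndufab1 gave 0.04 and 0.06, and Ndufa11 gave -0.05 and 0.06, so these genes were not called by either of their probe sets.

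The arrays were then read treatment by treatment, with differences between 2 arrays that have no replicate and no test. The median siRNA difference of the 43 genes was 0.11 with BSA (36 genes above 0), 0.09 with oleate (32 above 0) and 0.25 with palmitate (38 above 0), where the medians of all genes were 0.02, 0.03 and -0.04. Across the 43 genes, which are not independent replicates, the differences in BSA and oleate correlated with r = 0.66, those in BSA and palmitate with r = 0.62, and those in oleate and palmitate with r = 0.62. These arrays share a normalization, and over all genes the values were similar, at 0.67, 0.62 and 0.56. Much of the palmitate step lay in the scrambled palmitate array itself. It was the lowest of the 6 arrays for 29 of the 43 genes (67.4%, against 19.2% of all genes). For none was it the highest, where it was the highest for 24.2% of all genes. These shares of all genes include many dim probe sets and were not computed without them. In other lists this array was the lowest for 82.1% of complex II to V subunits and 16.7% of skeletal muscle markers. It was the lowest for 0% of macrophage and endothelial markers. Over the 43 genes, the median deviation of the scrambled palmitate array from each gene's own mean was -0.16. The scrambled BSA and oleate arrays had medians of -0.02 and -0.03, and the Plin2 siRNA arrays of 0.09, 0.08 and 0.07. Without a palmitate array the median siRNA change was 0.10, and 10 genes were called, of which 8 were among the 13. The share of all probe sets called in that fit is not given, so the count is not read as a result about these genes.

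**Figure D3:**
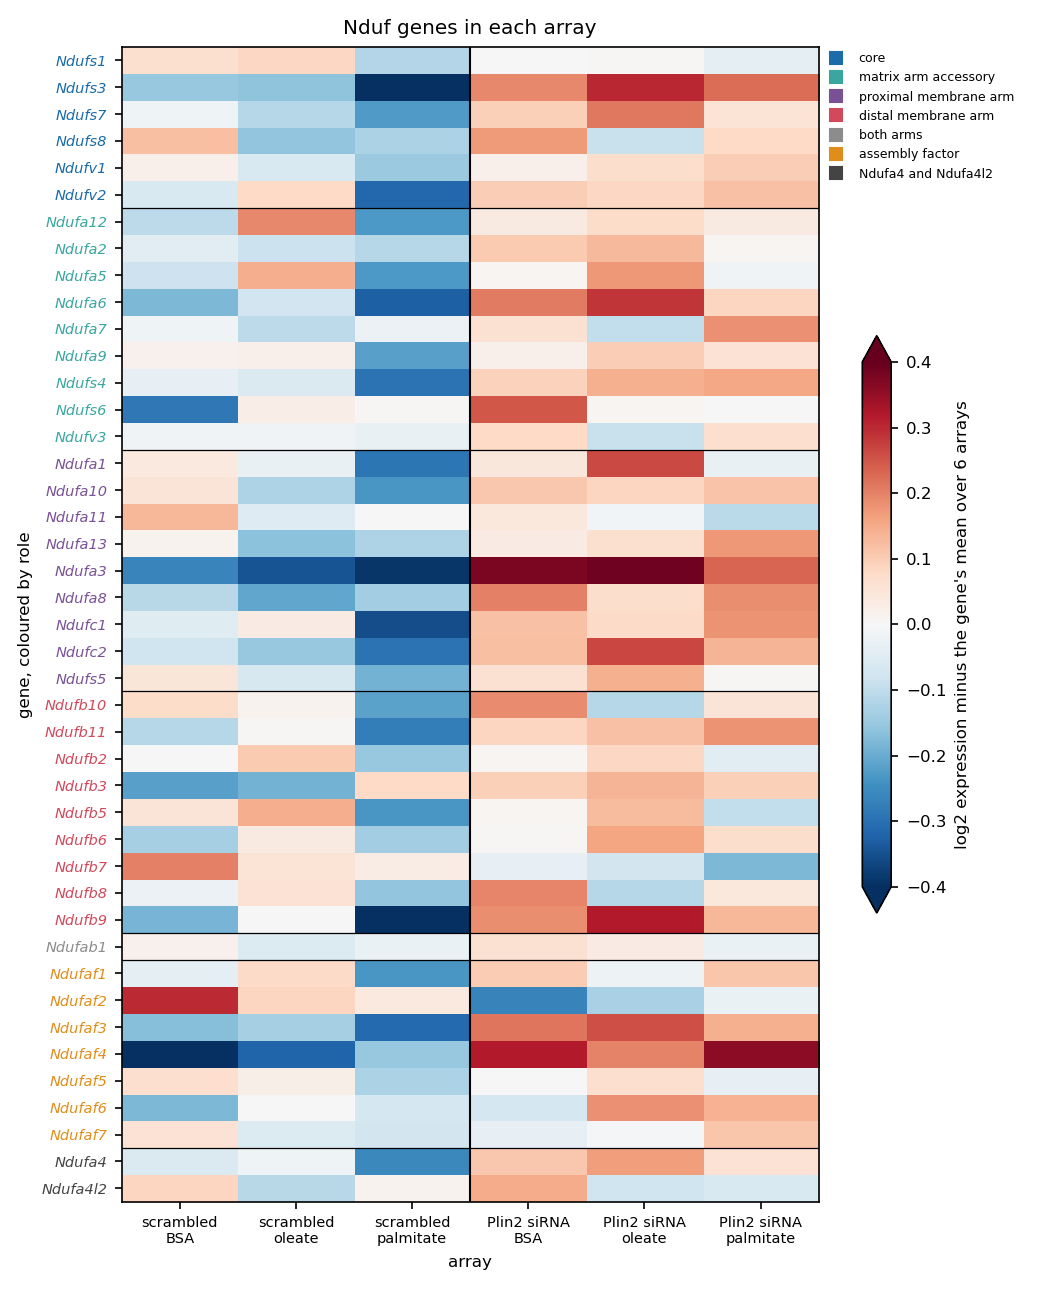
Log2 expression of each of the 43 genes (rows, grouped and coloured by role) in each of the 6 arrays (columns) minus the gene's mean over the 6; red is above and blue below that mean, with the scale ending at 0.4 either side. The scrambled palmitate column is the bluest, being the lowest array for 29 genes, and the 3 Plin2 siRNA columns are mostly red.

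The next comparison asks how the fatty acids moved these genes. Oleate, a monounsaturated fatty acid, left the median of the 43 genes at 0.01 against BSA, with 23 genes above 0 and 20 below. None was called by limma (lowest adjusted p = 0.51), where 0.0734% of all probe sets were, and 3 had an unadjusted p below 0.05 (6.98%, against 6.22% of all genes). The lowest differences were those of Ndufs8 (-0.27, SE 0.08), Ndufa4l2 (-0.21) and Ndufb10 (-0.18), and the highest those of Ndufaf6 (0.21), Ndufa5 (0.20) and Ndufa12 (0.17). Ndufs8 was at 9.55 with BSA and 9.27 with oleate in scrambled cells, and at 9.60 and 9.34 in Plin2 siRNA cells, so its step was alike under both siRNAs. Ndufa12 was at 9.36 and 9.65 in scrambled cells and at 9.50 and 9.53 in Plin2 siRNA cells, so most of its step lay in the scrambled arrays.

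Palmitate, a saturated fatty acid, gave a median of -0.10 against BSA, with 36 of 43 genes below 0, where the median of all genes was -0.01 and 52.3% were below 0. No single gene was called (limma, lowest adjusted p = 0.93), where 0.00918% of all probe sets were, and 2 had an unadjusted p below 0.05 (4.65%, against 5.2% of all genes). The 6 core subunits and 9 proximal arm subunits measured were all below 0. The lowest differences were those of Ndufb10 (-0.21), Ndufa1 (-0.20) and Ndufb5 (-0.20), all membrane arm subunits. The highest were those of Ndufaf6 (0.16), Ndufb3 (0.15) and Ndufaf4 (0.15). A lower level with palmitate was not particular to Nduf genes. All 12 skeletal muscle markers were also below 0 against BSA (median -0.12), whereas 6 of 7 macrophage and endothelial markers were above 0 (median 0.08).

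The negative side of palmitate was carried by the scrambled arrays. Within scrambled siRNA the median difference between palmitate and BSA was -0.16 with 39 of 43 genes below 0, where 49.1% of all genes were, and within Plin2 siRNA it was -0.02 with 25 below 0. The shift within scrambled siRNA was not limited to Nduf genes. All 12 skeletal muscle markers, which are bright, were below 0 there (median -0.20). All 7 macrophage and endothelial markers, which are dim, were above 0 (median 0.24), as were 8 of 9 fibroblast and adipocyte markers. The part of signal level in these differences was not tested. Ndufa1, an X-linked subunit of the proximal membrane arm, was at 8.96 with BSA and 8.63 with palmitate in scrambled cells, and at 8.97 and 8.89 in Plin2 siRNA cells. Ndufc1 was at 9.94 and 9.64 in scrambled cells and at 10.11 and 10.17 in Plin2 siRNA cells. The palmitate step was thus smaller in Ndufa1 and of opposite sign in Ndufc1 under Plin2 siRNA. The genes above 0 in scrambled cells were 4, namely Ndufb3 (0.30), Ndufs6 (0.29), Ndufaf4 (0.25) and Ndufaf6 (0.11). These differences rest on 1 array a condition and were not tested, and the scrambled BSA and palmitate arrays also enter the siRNA differences above.

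**Figure D4:**
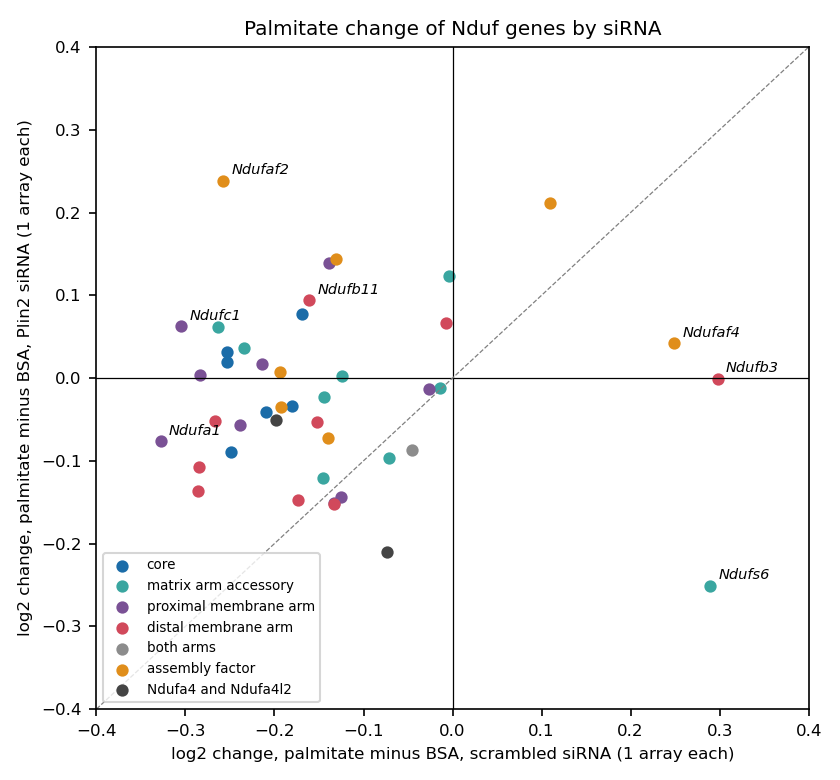
Log2 difference between palmitate and BSA for each of the 43 genes in scrambled cells (x axis) and in Plin2 siRNA cells (y axis), 1 array per condition, coloured by role; the dashed line marks equal differences. Most genes, 39 of 43, lie left of 0 on the x axis, while on the y axis 25 lie below 0 and 18 above.

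Oleate and palmitate, which differ in chain length and in the double bond of oleate, were set against each other at their shared dose of 200 µM and exposure of 20 h. Palmitate was lower than oleate in 33 of 43 genes, with a median of -0.10, where the median of all genes was 0.01. None was called by limma (lowest adjusted p = 0.21), where 0.262% of all probe sets were, and 7 had an unadjusted p below 0.05 (16.3%, against 9.12% of all genes). Ndufb9 was lowest at -0.32 (95% interval -0.50 to -0.13, adjusted p = 0.25). Ndufb5, another distal arm subunit, was at 10.62 with oleate and 10.24 with palmitate in scrambled cells and at 10.60 and 10.37 in Plin2 siRNA cells, a difference of -0.30 (95% interval -0.47 to -0.13, adjusted p = 0.21). Its palmitate arrays were the lowest under each siRNA. Ndufa5, a matrix arm subunit, followed at -0.28, and the highest differences were those of Ndufa7 (0.18), Ndufaf4 (0.16) and Ndufb3 (0.11). Leaving out the Plin2 siRNA oleate array gave -0.39 for Ndufa12 and -0.40 for Ndufb9. Leaving out the Plin2 siRNA palmitate array gave -0.38 for Ndufb5 and -0.44 for Ndufb9. Each of these fits leaves 1 array of that fatty acid.

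Whether the siRNA change differed between fatty acid and BSA arrays was tested with an interaction term. None of the 43 genes was called by limma, and none of all probe sets was (0%), with all adjusted p-values at 1, and 1 gene had an unadjusted p below 0.05 (2.33%, against 2.56% of all genes). That gene was Ndufs6, with an interaction of -0.54 (95% interval -0.92 to -0.17), whose siRNA step was seen with BSA and with neither fatty acid, as given above. Ndufb8 (-0.21) and Ndufaf4 (-0.20) followed, and the highest values were those of Ndufaf2 (0.42), Ndufa1 (0.27) and Ndufa13 (0.24). This model has 1 residual degree of freedom and wide intervals, so differences of this size were not resolved.

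Other genes of the pathway were read from lists. Of 13 further complex I assembly genes, 5 rose and 2 fell with Plin2 siRNA, where 8.5% of all probe sets rose and 8.58% fell. Tmem126b, which works with Ndufaf1 in the assembly of the membrane arm, was at 7.72, 7.84 and 7.56 with scrambled siRNA and at 8.53, 8.32 and 8.32 with Plin2 siRNA. Its groups were far apart and the change of 0.68 (SE 0.09, adjusted p = 0.00024) was close to that of Ndufa3. Dmac1 rose by 0.43 (adjusted p = 0.0055), Dmac2 by 0.36 (adjusted p = 0.02), Tmem186 by 0.30 (adjusted p = 0.037) and Lyrm2 by 0.28 (adjusted p = 0.039). Aifm1 fell by 0.31 (adjusted p = 0.02) and Timmdc1 by 0.26 (adjusted p = 0.027). Of the mitochondrially encoded core subunits only ND3 had a probe set tied to 1 symbol, at 12.10, 12.33 and 12 with scrambled siRNA and at 12.48, 12.52 and 12.48 with Plin2 siRNA. It rose by 0.35 (SE 0.06, adjusted p = 0.0024), and, as for most nuclear subunits, scrambled palmitate was its lowest array.

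Subunits of the other respiratory complexes are given for comparison. Of 39 subunits of complexes II to V, 20 rose (51.3%, against 8.5% of all probe sets), none fell and 19 were not called, with a median of 0.20 against 0.16 for the Nduf genes. By complex, 2 of 4 rose in complex II, 5 of 9 in complex III, 8 of 12 in complex IV and 5 of 14 in the ATP synthase. The largest rises were those of Cox8a (0.58), Atp5g3 (0.57), Cox8b (0.54), Cox7a1 (0.53) and Uqcrfs1 (0.46). Their median deviation in the scrambled palmitate array was -0.23, and 37 of 39 were below 0 with palmitate. The Nduf genes therefore moved in the direction of the other complexes, and the difference between the lists was not tested.

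Of 11 regulators of respiratory chain genes, 2 rose with Plin2 siRNA and none fell, so 18.2% were called, close to the 17.1% of all probe sets. Ppargc1a, the coactivator PGC-1α, was at 4.594, 4.646 and 4.344 with scrambled siRNA and at 6.196, 5.956 and 6.003 with Plin2 siRNA, a fitted difference of 1.52 (SE 0.12, adjusted p = 7.5e-06). Its scrambled values lay below the array medians of 4.94 to 5.02 and among the levels of the macrophage and endothelial markers, so this difference is a lower bound if the probe set was at background there. Ppara, a fatty acid-sensing nuclear receptor, rose by 0.54 (limma adjusted p = 0.012). It was as dim, at 4.53 to 4.90 in scrambled cells, so the size of its difference has the same limit. The factors named for the promoter elements above were not called: Nrf1 gave -0.05, Gabpa -0.06, Yy1 0.09 and Esrra 0.04.

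Muscle differentiation genes moved with the siRNA as well. Of the 12 muscle markers 8 fell and 1 rose, where 8.58% of all probe sets fell and 8.5% rose. Their median was -0.26, against 0.00439 over all genes, and none was near the low end of the scale. Their summed level (log2 of the sum of linear values) was 15.68 to 15.85 with scrambled siRNA and 15.49 to 15.53 with Plin2 siRNA, while that of the 43 Nduf genes was 14.93 to 15.12 and 15.22 to 15.27. Mb, encoding myoglobin, fell by 0.70, Myog, encoding the differentiation factor myogenin, by 0.69, and Mylpf, a fast myosin light chain, by 0.47. Myod1, a myogenic factor already present in myoblasts, rose by 0.46. Outside muscle, 1 of 9 fibroblast and adipocyte markers was called (11.1%, against 17.1% of all probe sets). This was Pdgfra, which rose by 0.36 with overlapping groups. Of the 7 macrophage and endothelial markers 1 was called (14.3%, against the same 17.1%), namely Cd68. It lay at 4.63 to 5.53, around the array medians, so no size is given for its fall. The part of these shifts in the Nduf changes was not tested.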

How the data were processed

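Total RNA from 6 samples was profiled on Affymetrix whole-transcript arrays, from 100 ng of RNA with an integrity number above 8.0 per the labels' protocols. The authors deposited log2 expression values made by RMA, per the submitters' processing notes; no source used here gives its version or a build, and the log base was read from the range of the values. Of 35556 probe sets, 21789 were tied to 1 gene symbol by the platform annotation, 1621 to several and 12146 are unnamed here. The median level of an array was 4.94 to 5.02. All 43 genes were matched to RefSeq by Entrez ID; 48 probe sets stood for them, and 3 further Nduf probe sets tied to several symbols were left out.

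Values were used as deposited. limma 3.58.1 in R 4.3.3 fitted treatment and siRNA as terms (eBayes with an intensity trend; 2 residual degrees of freedom and 9.21 borrowed), and every adjusted p is from limma over 21789 probe sets. An interaction model added siRNA by any fatty acid. Confidence intervals are at 95%. The number of arrays, 1 per condition, limits the precision. In the fit of treatment and siRNA, the 2 residual degrees of freedom come from how the siRNA difference varied between treatments. Standard errors, intervals and p-values therefore do not measure the spread between replicates of a condition. The scripts were tested on simulated data. Genes named were the core subunits, assembly factors, the called genes and, in each contrast, the 3 highest and 3 lowest; further examples in the text (array values of Ndufc1 and Ndufa12, and Lyrm2, Timmdc1, Nrf1, Gabpa, Yy1 and Esrra) were chosen after their values were seen. The gene set, the lists and the tests were chosen with earlier results of these data known. Promoter windows came from RefSeq (GRCm38.p6) and were searched with Python 3.11.15. No protein sequences were used here.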

Additional observations from a re-analysis of the deposited data

Results flagged for a closer look

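The direction of the oleate difference was opposite in the 2 siRNA groups when read by the median over the 43 genes. Against BSA, oleate gave a median of -0.0094 in scrambled cells, with 21 genes above 0 and 22 below, and of 0.0303 in Plin2 siRNA cells, with 27 above 0 and 16 below. Over all genes the medians were -0.0301 (42.7% above 0) and -0.0053 (48.6% above 0), a shift in the same direction. Each median rests on 1 array per condition, both are close to 0 beside the range of single genes (-0.28 to 0.31 in scrambled cells), and the difference was not tested for the list.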

How the results depend on the processing

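The siRNA comparison was the most dependent on settings. Its 13 calls, beside 17.1% of all features called, became 7 without the intensity trend (11.0% of all), 8 when unnamed probe sets were fitted too (6.07%) and 8 with arrays centred on their medians (14.7%), in each case all of them rises. The share over all features thus fell as well. The calls ranged from 9 to 16 when 1 array was left out. This also removes its treatment pair from the comparison, so leaving out either array of a treatment gives the same siRNA estimate. Shares over all features are not given for fits without an array, here and below, so these counts are not read as results about the Nduf genes. Called in all 13 alternatives were 7 genes (Ndufa3, Ndufa6, Ndufaf3, Ndufaf4, Ndufb9, Ndufc2 and Ndufs3), while Ndufa8, Ndufs4, Ndufs7, Ndufb11, Ndufa4 and Ndufb7 lost the call in at least 1. A further 6 genes were called in some alternative and not in the comparison as reported. Of 169 values of single genes under alternatives, 130 kept direction and call, 39 lost the call and none reversed. Palmitate against oleate ranged from 0 to 2 calls when 1 array was left out. The difference between the medians of subunits and assembly factors ranged from 0.0097 to 0.085. Oleate, palmitate and the interaction had 0 calls in every alternative run. No interaction fit without an array was run, since none leaves a residual degree of freedom. Each condition has 1 array, and the replicate numbers name no pairs of cultures. The treatment term pairs the arrays of a treatment in the siRNA comparison. The causes were not tested. Dim genes such as Ndufaf5, Ndufaf6 and Ndufa4l2 limit what can be seen of small changes.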
